A study of Homo sapiens with 8 samples.

Results

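Integrins are cell surface receptors made of 1 α and 1 β subunit, and laminins are proteins of the basement membrane made of 1 α, 1 β and 1 γ chain. The genes described are those that the peak lists name ITGA or ITGB, or LAMA, LAMB or LAMC, each followed by a number or a subunit letter, with LAMB2 left out. This rule found 37 of the 19767 gene names in the lists: 17 integrin α genes, 8 integrin β genes, 11 laminin genes and ITGBL1, an integrin β-like gene that encodes no receptor subunit. They held 1334 and 1213 of the 600615 and 538802 peaks of the PTBP1 immunoprecipitation (IP) replicates 1 and 2. In IGF2BP2 IP replicates 1 and 2 they held 661 and 655 of 362700 and 341305 peaks.

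In the established human glioma line A172, the study mapped the RNAs that PTBP1 and IGF2BP2 bind, by enhanced crosslinking and immunoprecipitation (eCLIP). The 8 samples fall into 4 groups of 2: PTBP1 IP, PTBP1 input, IGF2BP2 IP and IGF2BP2 input. Cells of every group were given 500 µM 4-thiouridine for 3 h, which puts a photoreactive base into new RNA, and then 2 times 400 mJ/cm2 of ultraviolet light at 365 nm, which links such RNA to the proteins on it. From each sample 2% was set aside as input, and protein-bound RNA came from membrane of about 55 to 130 kDa for PTBP1 and about 65 to 140 kDa for IGF2BP2, giving libraries of 175 to 350 bp. The labels name no other treatment and no genetic change, so the proteins are compared by their antibodies in cells of 1 line. The labels state that the experiments were done 2 times but not that the replicates were separate cultures, so a p-value here weighs a difference against library spread that may be technical.

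PTBP1, the polypyrimidine tract-binding protein, binds pyrimidine-rich stretches of pre-mRNA and mostly holds exons out of the spliced transcript. IGF2BP2, also called IMP2, binds mature mRNA, often in 3′ UTRs, and is known for stabilising transcripts and aiding their transport. Integrins link the matrix to the actin cytoskeleton, and in glioma, laminins of the vessel wall and the brain parenchyma are among the surfaces on which the cells move.

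A peak is a stretch where IP reads piled up. It is not a level of RNA, and in bulk cells a smaller number of cells with an RNA and less of that RNA in each cell cannot be told apart. Among 8 RNAs listed as markers of glioma and glia, 5 had peaks in all 4 libraries. CD44 had 101 and 108 peaks in the PTBP1 libraries and 85 and 69 in the IGF2BP2 libraries, GFAP had 2 and 3 against 2 and 0, and S100B and SOX2 had none in any library. Among 9 leukocyte markers, of which 4 are integrin genes described here, 4 had peaks in all 4 libraries: ITGB2, ITGAL, SPI1 and PTPRC, which had 13 and 7 PTBP1 peaks and 9 and 5 IGF2BP2 peaks. CD3E had none. Of 4 endothelial markers PECAM1 and VWF had peaks in all 4 libraries and KDR had none, of 5 epithelial markers EPCAM and CDH1 had and KRT5 and KRT14 had none, and of 3 platelet markers PF4 and GP9 had none. The leukocyte integrin genes among the 37, ITGAL, ITGAM, ITGAX, ITGAD, ITGAE, ITGB2 and ITGB7, together held 96 and 71 PTBP1 peaks and 66 and 51 IGF2BP2 peaks.

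The deposited lists pair each peak with a log2 ratio of IP to input reads and a −log10 p. As the offset of the log2 differs between chromosomes and libraries, values below are on a common scale per library, and a peak is called enriched where this log2 and its −log10 p are both at least 3. The bar differs between the proteins: an offset of -0.30 and -0.08 in the PTBP1 libraries and of 1.74 and 1.90 in the IGF2BP2 libraries means that for IGF2BP2 a smaller excess of IP over input reads is enough. Peaks of a protein's 2 replicates that overlap on 1 strand were joined into a region, and an enriched region holds an enriched peak of each replicate.

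A genome was not used here, so the letters under the enriched regions are not shown. For 25 of the 37 genes the first 50 bases were read, and in 3 of them a PTBP1 region that reached these bases was read. In ITGAV, 1 of the 3, no base read was covered in both replicates. The 2 longer stretches are shown as examples of reproducible PTBP1 peaks without enrichment. Letters are from RefSeq for GRCh38.p14, 5′ to 3′ on the strand of the gene, with bases covered in both replicates in capitals.
ITGBL1 5′ UTR, chr13:101452697-101452724, plus strand: CCGGACCTGCAAGCCTGGGTGTCCGTGG
LAMB1 5′ UTR, chr7:108003123-108003148, minus strand: gGGGGCTCCCGGAGCAGGGCGAGagc

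The ITGBL1 stretch spans bases 23 to 50 of the gene and ends where the window read here ends. Its peaks had a log2 of -0.57 and -0.87 in PTBP1 replicates 1 and 2, below 0 in both, and 50.0% of its bases were pyrimidines. The LAMB1 stretch spans bases 14 to 39, had a log2 of -0.46 and -0.40, and was 30.8% pyrimidine. Over the first 50 bases of 35116 RefSeq windows the median was 48.0%, close to the ITGBL1 stretch and above the LAMB1 stretch. The motif TTCTT was found on the gene strand in 4.87% and CTCTCT in 2.27% of those windows, and neither was in these 2 stretches.

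The 37 genes differed widely in how many peaks they held. All 4 libraries had peaks in 29 of them, and 8 lacked peaks in at least 1 library. ITGB5, ITGA3, LAMA5, LAMC1 and ITGBL1 held the most PTBP1 peaks, together 40.4% and 42.7% of those in the 37 genes. LAMA5, ITGA3, LAMC1 and ITGB5 led in both IGF2BP2 libraries. Per length of the gene, ITGA3 averaged 34.6 PTBP1 peaks and 23.9 IGF2BP2 peaks per 10 kb, LAMA5 averaged 17.3 and 25.5, and ITGB5 averaged 9.79 and 3.44. ITGA5, the fibronectin receptor subunit, had 1 peak in PTBP1 replicate 1, on the strand opposite to the gene, and none in any other library.

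**Figure D1:**
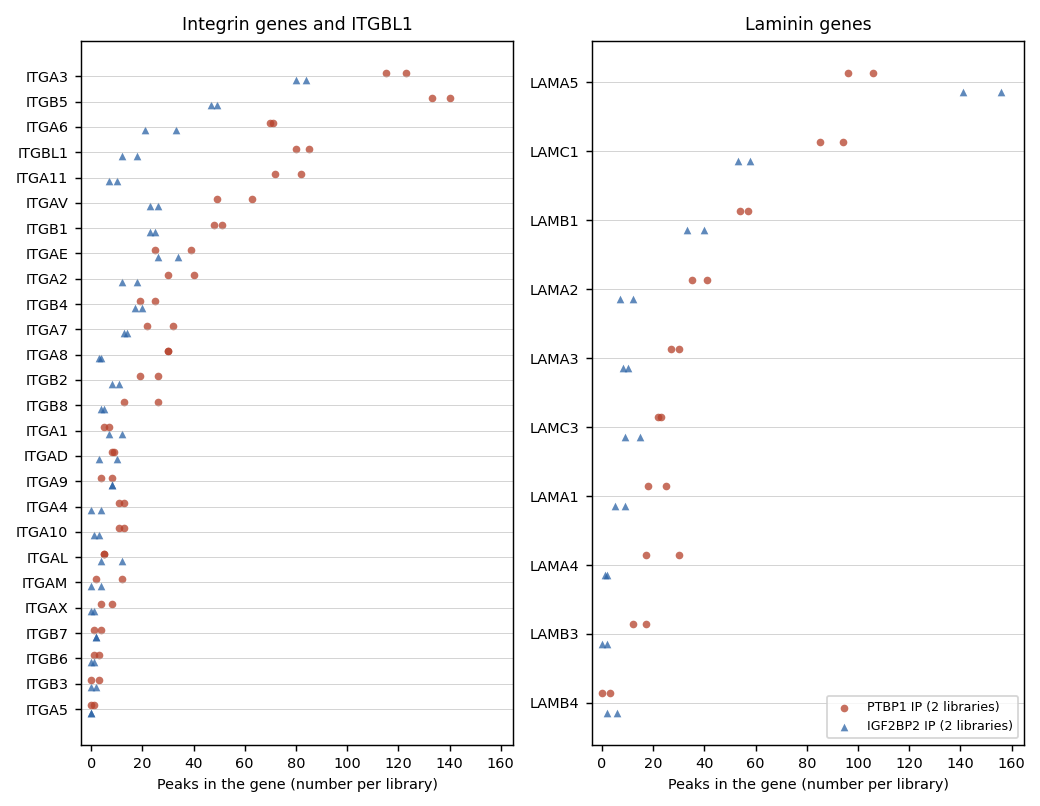
Number of deposited peaks (horizontal axis) in each integrin gene and ITGBL1 (left) and the laminin genes named here (right), with 1 point per library, circles for PTBP1 IP and triangles for IGF2BP2 IP. In LAMA5 both IGF2BP2 libraries (141 and 156) lie above both PTBP1 libraries (106 and 96).

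Peak density asks which protein gave a gene more of its peaks. It is the gene's share of all peaks in a list, as log2 of peaks per 10000 with a pseudocount of 0.5 added, PTBP1 minus IGF2BP2. Of the 37 genes, 33 held at least 10 peaks over the 4 libraries and were tested in limma's fit of 15145 genes with Benjamini-Hochberg adjustment. ITGA5, ITGB3, ITGB6 and ITGB7 were not. Density was higher in PTBP1 for 10 of the 33 (30.3%), against 12.7% of all genes tested, and higher in IGF2BP2 for 1 (3.03%), LAMA5, against 12.3%. The other 22 did not pass. By nucleotides covered in place of peaks, 14 (42.4%) were higher in PTBP1, against 21.0% of all genes, and 8 (24.2%) in IGF2BP2, against 23.4%, so that the share towards IGF2BP2 was then near that of all genes. The median difference was 0.52 over the 33 genes and -0.01 over all genes, with 22 positive and 11 negative among the 33.

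Among the integrin α genes, 3 passed, all towards PTBP1. ITGA11, a collagen receptor subunit, held 82 and 72 peaks in the PTBP1 libraries and 10 and 7 in the IGF2BP2 libraries. The groups lay far apart, and the log2 difference in density was 2.43 (SE 0.218, limma adjusted p = 0.00145). ITGA8, a receptor for RGD-bearing matrix proteins such as nephronectin, held 30 and 30 PTBP1 peaks and 3 and 4 IGF2BP2 peaks, a difference of 2.25 (SE 0.338, limma adjusted p = 0.00516). ITGA6, which pairs with ITGB1 or ITGB4 into laminin receptors, held 70 and 71 PTBP1 peaks against 33 and 21, a difference of 0.71 (SE 0.213, limma adjusted p = 0.049). This last call is the closest to the threshold among those made.

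Most α genes did not pass. ITGA3, another laminin receptor subunit and the α gene with the most peaks, held 123 and 115 PTBP1 peaks and 80 and 84 IGF2BP2 peaks, with a density difference of -0.16 (SE 0.112, limma adjusted p = 0.322). Its counts were higher in PTBP1, but its shares of the unequal lists did not differ beyond the spread. Counted by nucleotides covered, its density passed towards IGF2BP2 (-0.82, limma adjusted p = 0.00288), and so it did when peaks had to hold at least 10 IP reads (-0.92, limma adjusted p = 0.00511), in a fit whose median over all genes was 0.66. ITGAV, the partner of several RGD-binding β subunits, held 63 and 49 PTBP1 peaks against 23 and 26 of IGF2BP2 (difference 0.47, SE 0.181, limma adjusted p = 0.0961). The collagen receptor subunits ITGA1, ITGA2 and ITGA10 had differences of -1.29, 0.52 and 1.75, and none of these passed.

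Among the β genes, 1 passed. ITGB5, a partner of ITGAV that binds vitronectin, held 140 and 133 PTBP1 peaks and 47 and 49 IGF2BP2 peaks, a density difference of 0.80 (SE 0.120, limma adjusted p = 0.00503). Replicates were close to each other for both proteins. ITGB1, which pairs with more α subunits than any other β subunit, held 48 and 51 PTBP1 peaks against 25 and 23 (difference 0.34, SE 0.176, limma adjusted p = 0.196). With enriched peaks only the ITGB1 difference was 3.735 (limma adjusted p = 0.0202), on 7 and 7 PTBP1 peaks against 0 and 2. That fit took genes with at least 10 enriched peaks, which ITGB1 reached almost only through PTBP1. ITGB4, the β subunit of hemidesmosomes, held 19 and 25 against 17 and 20 (difference -0.46), and ITGB2, the β subunit of leukocyte integrins, held 19 and 26 against 11 and 8 (difference 0.51), and neither passed. ITGBL1 held 85 and 80 PTBP1 peaks and 12 and 18 IGF2BP2 peaks, a difference of 1.75 (SE 0.238, limma adjusted p = 0.00383).

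Laminin genes gave calls in both directions. LAMA5, an α chain of vessel and epithelial basement membranes, held 106 and 96 peaks in the PTBP1 libraries and 141 and 156 in the IGF2BP2 libraries. The IGF2BP2 counts were higher although those lists were shorter, and the difference was -1.25 (SE 0.112, limma adjusted p = 0.00145). The α chain LAMA2, found in muscle and brain vessel basement membranes, held 41 and 35 PTBP1 peaks against 12 and 7 of IGF2BP2 (difference 1.29, limma adjusted p = 0.019).

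LAMA4, the other major α chain of the vessel wall, held 30 and 17 PTBP1 peaks against 2 and 1 (difference 2.88, limma adjusted p = 0.00746). LAMA3 and LAMB3, chains of an epithelial laminin of the skin, also passed towards PTBP1. LAMA3 held 30 and 27 PTBP1 peaks against 10 and 8 (0.92, limma adjusted p = 0.0384). LAMB3 held 17 and 12 PTBP1 peaks against 2 and 0 (3.03, SE 0.800, limma adjusted p = 0.0341), a value that rests on the pseudocount in the library without a peak and was 1.83 with a pseudocount of 2.

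The chains LAMB1 and LAMC1, which with an α chain form the most widely expressed laminins, did not pass in density. LAMB1 held 54 and 57 PTBP1 peaks against 33 and 40 (difference -0.09, SE 0.184, limma adjusted p = 0.745), and LAMC1 held 85 and 94 against 58 and 53 (difference -0.01, SE 0.143, limma adjusted p = 0.968). Both passed towards PTBP1 when only deeper or enriched peaks were counted. With peaks of at least 10 IP reads the differences were 1.58 for LAMB1 (limma adjusted p = 0.0347) and 1.09 for LAMC1 (limma adjusted p = 0.00926), in that same fit with a median of 0.66 over all genes. With enriched peaks only they were 5.24 (limma adjusted p = 0.00211) and 1.63 (limma adjusted p = 0.033). The LAMB1 value of 5.24 rests on the pseudocount, as LAMB1 had 9 and 9 enriched PTBP1 peaks and 0 and 0 of IGF2BP2. That fit took genes with at least 10 enriched peaks over the 4 libraries. LAMB1 thus entered it through PTBP1 peaks alone, so the filter fixed the direction of its call, which is no support for a difference. By nucleotides covered, LAMB1 passed towards IGF2BP2 (-0.42, limma adjusted p = 0.043).

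**Figure D2:**
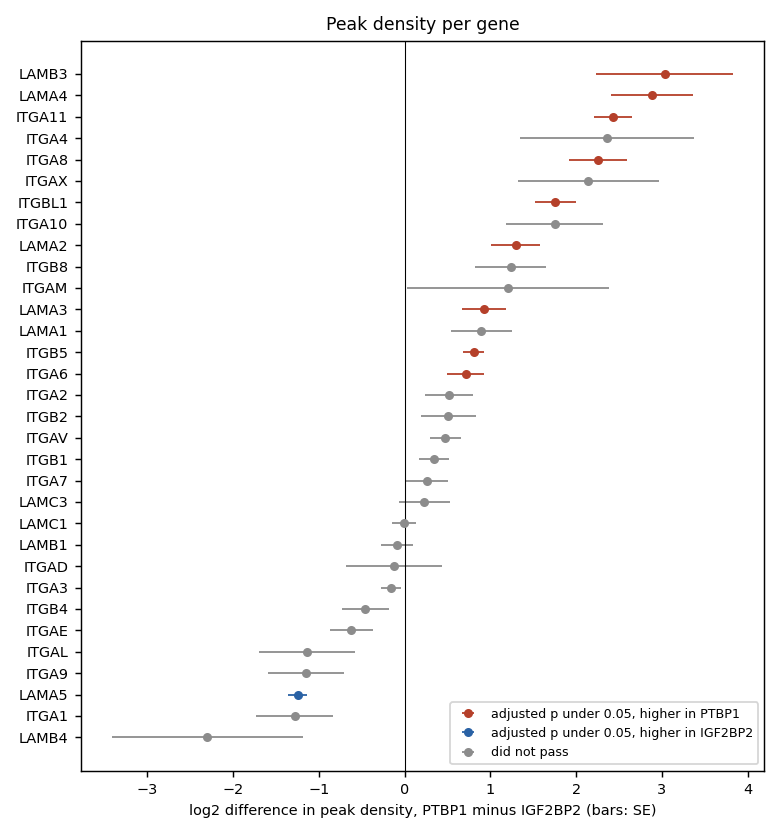
Log2 difference in peak density, PTBP1 minus IGF2BP2, for the tested genes named here, with SE as bars and limma calls in colour. LAMA5 at -1.25 is the only coloured point left of 0, and the genes coloured on the right run from ITGA6 at 0.71 to LAMB3 at 3.03, which was 1.83 with a pseudocount of 2.

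Leaving out 1 library leaves its protein with a single library, which the fit then takes to vary like the 2 libraries of the other protein. Without PTBP1 replicate 1, 4 of the 33 genes (12.1%) were higher in PTBP1, against 7.36% of all genes, and without replicate 2, 5 were (15.2%, against 8.06%). The differences of ITGA6 (0.80 and 0.62), LAMA2 (1.26 and 1.33) and LAMA3 (0.93 and 0.92) stayed near those above, but passed in neither fit. Without replicate 1 LAMA4 (2.56) and LAMB3 (2.87) did not pass, nor did ITGA8 (2.17) without replicate 2. LAMA5, ITGA11, ITGB5 and ITGBL1 passed in both fits, with the limit just given.

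Without IGF2BP2 replicate 1 or 2, 15 of the 33 genes (45.5%) were higher in PTBP1 in each case, against 22.6% and 21.5% of all genes, and 3 (9.09%) in IGF2BP2, against 19.6% and 18.7%. The ITGA6 difference was 0.43 without IGF2BP2 replicate 2 (limma adjusted p = 0.0485), and that of LAMB3 was 4.15 without IGF2BP2 replicate 1 and 1.92 without replicate 2. With no filter on peaks the differences did not change, but ITGA6, LAMA3 and LAMB3 no longer passed, with limma adjusted p = 0.0842, 0.0515 and 0.0629. With peaks of at least 10 IP reads, 6 of these 11 genes could be tested, and ITGA11 (0.94, limma adjusted p = 0.182) and ITGA6 (0.14, limma adjusted p = 0.804) no longer passed.

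The height of the peaks over input was compared as the median log2 per gene, for 21 of the 37 genes with at least 5 peaks in every library, after centring each library on its median over the 9672 genes tested. Only ITGA3 passed, with a difference of 1.56 in favour of PTBP1 (SE 0.222, limma adjusted p = 0.0472), so 1 of 21 (4.76%) was higher in PTBP1, against 4.29% of all genes. None was higher in IGF2BP2, against 0.993% of all genes. The median difference was -0.35 over the 21 genes and 0.01 over all. With the log2 as deposited it was -0.04 over the 21 genes as well as over all. Over the 21 genes it was -0.17 without PTBP1 replicate 1 and -0.42 without PTBP1 replicate 2. It was -0.12 without IGF2BP2 replicate 1 and -0.39 without IGF2BP2 replicate 2. Without IGF2BP2 replicate 1, ITGB1 also passed towards PTBP1 (1.08, limma adjusted p = 0.0453) and ITGAE towards IGF2BP2, and without replicate 2, ITGA6 towards IGF2BP2.

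Before centring, the ITGA3 medians were 0.87 and 0.59 in the PTBP1 libraries, against 0.62 and 0.75 in those of IGF2BP2, so the raw medians of the proteins overlapped. Over all genes they were 0.92 and 0.99 in PTBP1 and 2.32 and 2.32 in IGF2BP2. Depth moved with this result: 70.7% and 67.0% of the ITGA3 peaks had at least 10 IP reads in the PTBP1 libraries and 41.2% and 36.9% in the IGF2BP2 libraries, against 42.7% and 38.9%, and 13.9% and 13.4%, of the peaks in all genes. The part of depth in the ITGA3 value was not tested. The call was lost without either PTBP1 replicate, at 1.39 without replicate 1 (limma adjusted p = 0.124) and 1.74 without replicate 2 (limma adjusted p = 0.0967).

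Coding sequence held a larger share of the peaks in the integrin and laminin genes than of peaks in all genes, for both proteins, a description with no test. Coding sequence held 27.3% ± 1.23 of the PTBP1 peaks and 18.5% ± 1.19 of the IGF2BP2 peaks in the 37 genes (SD, n = 2 libraries each), against 14.2% ± 0.200 and 9.74% ± 0.0527 over all genes. The 2 groups did not overlap, but with 2 libraries against 2 the smallest p of a two-sided exact permutation test is 0.333, which was the value here and for 3′ UTRs and introns. Introns held 69.7% ± 1.59 of the PTBP1 peaks and 76.1% ± 0.0611 of the IGF2BP2 peaks, against 78.4% ± 0.395 and 78.8% ± 0.262 over all genes. By nucleotides covered in place of peaks, the order of the proteins in the 37 genes turned round, to 71.5% for PTBP1 and 69.8% for IGF2BP2. Coding sequence then held 26.3% and 23.2%, a gap of 3.13 points in place of 8.78. Among peaks of at least 10 IP reads the gap was 23.7 points, with 43.8% for PTBP1 and 20.1% for IGF2BP2 in coding sequence and 54.1% and 69.1% in introns.

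The 3′ UTRs held 1.23% ± 0.472 of the PTBP1 peaks and 3.42% ± 0.730 of the IGF2BP2 peaks (SD, n = 2 each), against 3.41% ± 0.110 and 7.09% ± 0.147 over all genes. By nucleotides covered it was 0.835% and 4.59%, and among peaks of at least 10 IP reads 0.669% and 8.26%. The share in coding sequence was higher in the laminin genes than in the integrin subunit genes: 42.2% ± 0.346 of their PTBP1 peaks and 23.9% ± 2.84 of their IGF2BP2 peaks lay there, and 21.3% ± 1.58 and 14.8% ± 0.0144 of those in integrin subunit genes (SD, n = 2 each). In laminin 3′ UTRs there were 0 and 1 PTBP1 peaks among 441 and 410, and 7 and 8 IGF2BP2 peaks among 292 and 293.

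**Figure D3:**
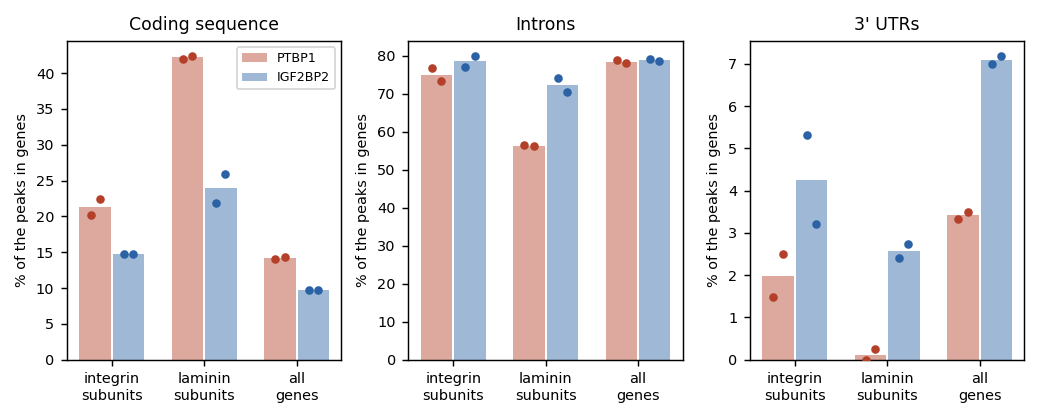
Percent of the peaks in integrin subunit genes, laminin genes and all genes that lie in coding sequence, introns and 3′ UTRs, PTBP1 left of IGF2BP2. Bars are means of 2 libraries and points the libraries. Laminin genes show the widest gap in coding sequence, 42.2% for PTBP1 and 23.9% for IGF2BP2.

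LAMA5 shows that gap within 1 gene and weighs heavily in the laminin shares. Of the laminin PTBP1 peaks in coding sequence, LAMA5 held 87 of 185 and 80 of 174. For IGF2BP2 it held 40 of 64 and 46 of 76. The laminin shares without LAMA5 were not computed. Coding sequence held 82.1% and 83.3% of its PTBP1 peaks and 28.4% and 29.5% of its IGF2BP2 peaks. Introns held 17.9% and 16.7% of the PTBP1 peaks and 70.9% and 69.9% of the IGF2BP2 peaks. In numbers, introns held 19 and 16 PTBP1 peaks and 100 and 109 of IGF2BP2, while coding sequence held 87 and 80 PTBP1 peaks and 40 and 46 of IGF2BP2. The PTBP1 peaks were low, with a median log2 over those of LAMA5 of 0.003 and -0.04, and no PTBP1 peak of LAMA5 was enriched.

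ITGB5 had the most PTBP1 peaks of the 37 genes, but few were high. It held 75 reproducible PTBP1 regions, none enriched. At least 10 IP reads were found in 22.1% and 17.3% of its PTBP1 peaks, against 42.7% and 38.9% over all genes. For its IGF2BP2 peaks it was 0.0% in both libraries, against 13.9% and 13.4%. In introns lay 94.3% and 90.2% of its PTBP1 peaks and 78.7% and 83.7% of its IGF2BP2 peaks. IGF2BP2 gave 7 enriched peaks in each replicate, on few reads, and none of them fell in a region enriched in both. Counting enriched peaks alone, its density difference was -1.33 (limma adjusted p = 0.0975), opposite in sign to that of all peaks.

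Enriched regions were few. PTBP1 had 21 among 663 reproducible regions in the 37 genes (3.17%), against 2.32% over all genes, and they lay in 6 of the 31 genes that had a region (19.4%, against 17.7% of all genes). IGF2BP2 had 9 among 315 (2.86%), against 5.91% over all genes, in 4 of 27 genes (14.8%, against 27.9% of all genes). By annotation, 12 of the 21 PTBP1 regions were in coding sequence, 9 in introns and 0 in 3′ UTRs, and of the 9 IGF2BP2 regions 0 were in coding sequence, 6 in introns and 3 in 3′ UTRs. On the strand of the gene lay 9 of the 12 PTBP1 regions in coding sequence and 8 of the 9 in introns. A peak on the other strand mirrored 6 of those 12 and 2 of those 9. In single libraries 51.4% and 52.8% of the enriched PTBP1 peaks in these genes were in coding sequence, and 1.92% and 2.22% of the enriched IGF2BP2 peaks. Over all genes it was 28.3% and 27.9% for PTBP1 and 5.66% and 6.09% for IGF2BP2. Introns held 48.6% and 47.2% of the enriched PTBP1 peaks in the 37 genes, against 65.4% and 65.7% over all genes. For IGF2BP2 it was 84.6% and 88.9%, against 74.8% and 74.4%. The 3′ UTRs held 0.0% in both PTBP1 libraries, against 2.51% and 2.65%. For IGF2BP2 they held 9.62% and 8.89%, against 15.9% and 16.1%.

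LAMC1, the γ chain of most laminins, had 5 enriched PTBP1 regions and 2 of IGF2BP2, with no overlap. By the lower log2 of its 2 replicates, the highest PTBP1 region of all 37 genes lay in a LAMC1 intron at chr1:183094070-183094230, plus strand, with 75 IP reads to 1 input read in replicate 1 and 57 to 1 in replicate 2, a log2 of 5.93 and 5.76. By the mean of both replicates it came after a LAMB1 region on the strand opposite to that gene, with 5.84 against 5.93. IGF2BP2 replicate 1 had an enriched peak over it (log2 4.32) and replicate 2 had none. The other intronic region had a log2 of 4.91 and 3.09. The 3 coding regions lay 105.3, 114.4 and 119.3 kb from the start of a gene of 122.2 kb.

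The first of these, at chr1:183128627-183128737, had a log2 of 4.60 and 4.64. The next, chr1:183137742-183137825, had 5.17 and 5.62, and the last, chr1:183142561-183142834, had 5.05 and 5.03. Replicates were close to each other at all 3. The IGF2BP2 region nearest to them was in the LAMC1 3′ UTR at chr1:183144182-183144246, plus strand, 1.35 kb past the last coding region. It had 28 reads to 4 and 24 to 3 in IGF2BP2 replicates 1 and 2, a log2 of 4.55 and 4.90, and no PTBP1 peak. The second IGF2BP2 region, in an intron at chr1:183064902-183064926, rested on 9 and 7 IP reads (log2 3.91 and 4.71).

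LAMB1, the β chain that pairs with LAMC1, had 6 enriched PTBP1 regions, all in coding sequence 71.7 to 76.9 kb from the start of a gene of 79.4 kb, and none of IGF2BP2. By the lower log2, the strongest lay at chr7:107929093-107929205 on the minus strand, that of the gene, with 176 reads to 2 and 113 to 4 (log2 6.16 and 4.74). On the plus strand chr7:107929072-107929195 covered the same place, with 175 to 1 and 110 to 4 (log2 7.15 and 4.70). The same held for chr7:107926189-107926354 on the plus strand, with 158 to 7 and 141 to 4 reads (log2 4.19 and 5.06), and its partner on the minus strand, with 154 to 7 and 133 to 4. Reads on both strands were thus nearly equal, so these sites cannot be assigned to the LAMB1 strand from the lists.

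Of the 6 LAMB1 regions, 2 had no such mirror. They lay on the gene strand at chr7:107929412-107929441, with 40 to 1 and 20 to 1 reads (log2 5.02 and 4.25), and nearer to the gene start, with a log2 of 3.83 and 3.15. IGF2BP2 had peaks in both replicates at the mirrored sites, with a log2 of 2.74 and 2.58 at the pair that holds the strongest region and 3.32 and 2.71 at the other. None of these IGF2BP2 peaks was enriched.

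ITGB1 had 4 enriched PTBP1 regions, 3 in introns and 1 in coding sequence, all on its strand with no mirror. The highest, in an intron at chr10:32942109-32942254, minus strand, had 81 reads to 3 and 50 to 1 (log2 4.45 and 5.57). It lay 16.1 kb from the gene start, and the other 2 intronic regions lay at 9.52 and 14.7 kb. At the one 9.52 kb from the start, IGF2BP2 replicate 2 also had an enriched peak (log2 4.49) and replicate 1 had no peak. The coding region at chr10:32912061-32912124 had 49 to 2 and 24 to 1 (log2 4.31 and 4.51). No IGF2BP2 region of ITGB1 was enriched.

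ITGA3 was, with LAMC1, 1 of 2 genes with enriched regions of both proteins, and those of PTBP1 lay nearer to the gene start. Both PTBP1 regions were intronic, 2.60 and 4.25 kb from the gene start, with a log2 of 3.18 and 3.66 at the nearer and 3.90 and 3.68 at the farther. They were deeply covered, with 112 to 10 and 93 to 7 reads at the nearer and 92 to 5 and 81 to 6 at the farther. The IGF2BP2 regions in its 3′ UTR lay 0.87 kb apart, at chr17:50089321-50089375 with 81 to 29 and 65 to 27 reads (log2 3.22 and 3.17) and at chr17:50090242-50090279 with 28 to 6 and 30 to 5 (log2 3.96 and 4.49). PTBP1 also had a peak in each replicate at the first of them, with a log2 of 0.13 and 0.12. The remaining IGF2BP2 region, in an intron at chr17:50072615-50072636, had 7 IP reads in each replicate (log2 3.55 and 4.71).

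The remaining PTBP1 regions were mirrored pairs. ITGAV had 1 pair in coding sequence, at a log2 of 3.91 and 4.01 on the strand opposite to the gene and 3.87 and 3.01 on its own. ITGB2 had 1 pair in an intron, with 45 reads to 4 and 28 to 2 on each strand (log2 3.19 and 3.73), where the RefSeq table also places the antisense gene ITGB2-AS1. Of the 21 PTBP1 regions 17 lay on the gene strand, 4 on the other, and 8 were mirrored, while all 9 IGF2BP2 regions lay on the gene strand. For ITGA3, ITGB2 and ITGB4 that strand was itself read from most of their peaks.

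LAMA5 had 2 enriched IGF2BP2 regions, both in introns. At chr20:62349788-62349865, minus strand, there were 34 to 10 and 64 to 20 reads (log2 3.50 and 3.58), among the deepest of the IGF2BP2 regions, and no PTBP1 peak. At chr20:62359189-62359211 there were 9 to 1 and 7 to 1 (log2 4.91 and 4.71), the highest log2 of the 9, on few reads. ITGB4 had 1 intronic site counted as 2 abutting regions, chr17:75722611-75722614 and chr17:75722615-75722631, each with 7 to 2 and 6 to 1 reads (log2 3.55 and 4.49). Of the 9 IGF2BP2 regions, 4 thus had at least 24 IP reads in each replicate and 5 had 9 or fewer.

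**Figure D4:**
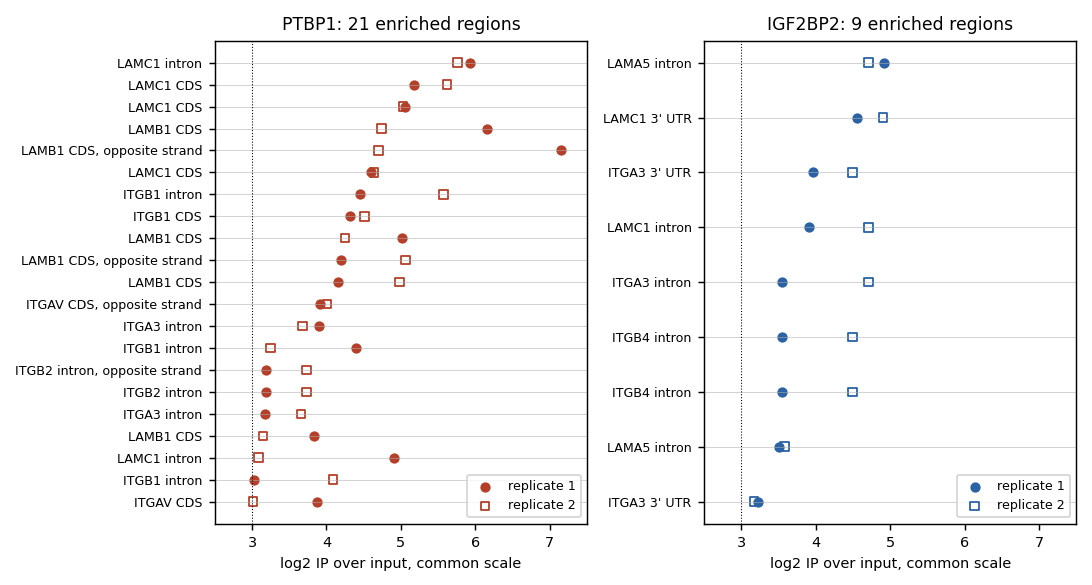
Log2 of IP over input reads on the common scale (horizontal axis) in replicate 1 (filled circles) and replicate 2 (open squares) for the 21 PTBP1 regions (left) and 9 IGF2BP2 regions (right) enriched in both replicates, with gene and annotation. The dotted line is the threshold of 3, and the widest gap between replicates is that of LAMB1 on the opposite strand, 7.15 and 4.70.

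**Figure D5:**
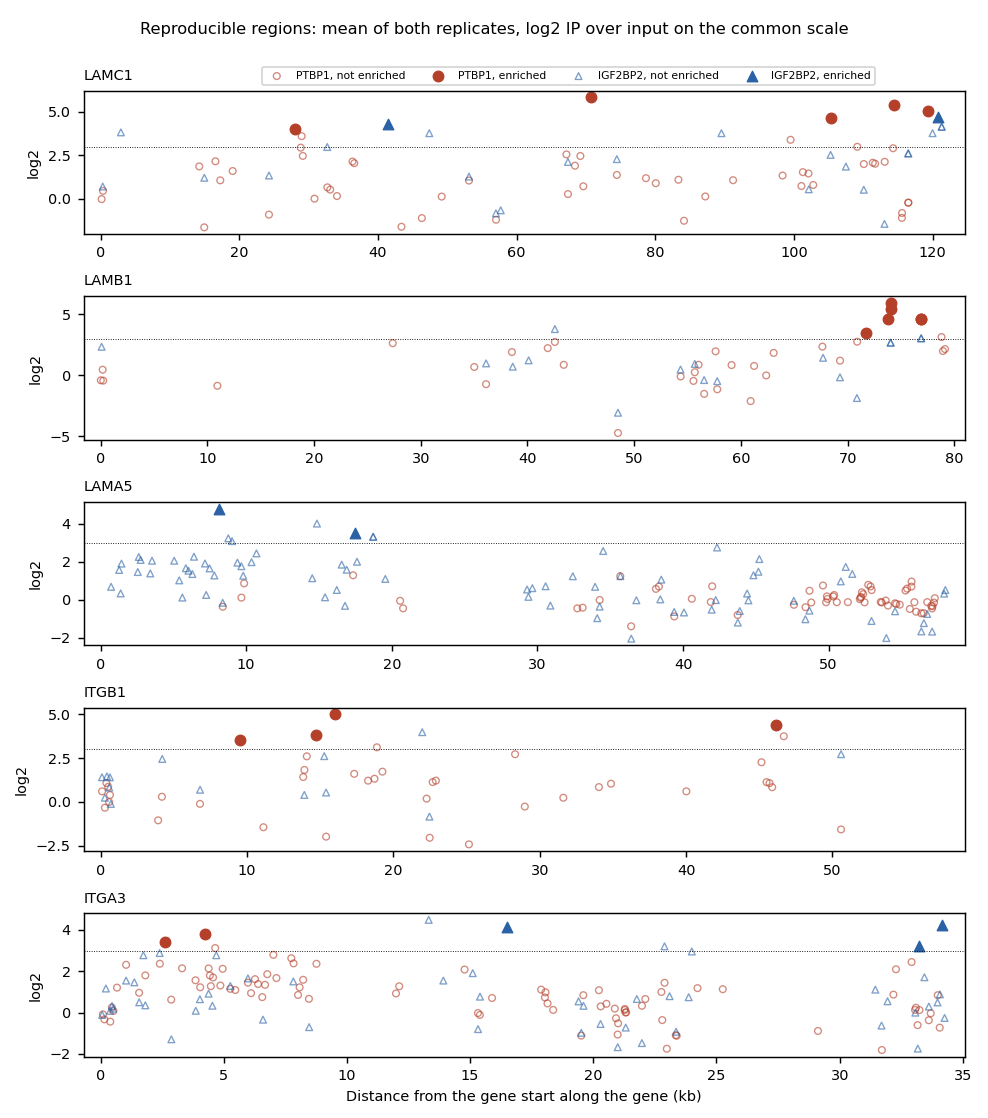
Reproducible regions along LAMC1, LAMB1, LAMA5, ITGB1 and ITGA3, by distance from the gene start in kb (horizontal axis) and mean log2 of both replicates (vertical axis), circles for PTBP1 and triangles for IGF2BP2, filled where enriched. Enriched PTBP1 regions of LAMB1 crowd between 71.7 and 76.9 kb, and in ITGA3 the enriched PTBP1 regions lie at 2.60 and 4.25 kb and the IGF2BP2 ones at 16.5, 33.2 and 34.2 kb.

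Overlap between the proteins was close to that over all regions. Of the 663 PTBP1 regions 131 (19.8%) were overlapped by an IGF2BP2 region on the same strand, against 19.9% over all regions, and 127 of the 315 IGF2BP2 regions (40.3%) by a PTBP1 region, against 39.6%. Peaks of PTBP1 replicates 1 and 2 were found again in the other replicate in 55.5% and 61.0% of cases, against 56.0% and 61.9% over all peaks. For IGF2BP2 it was 51.3% and 52.5%, against 48.4% and 51.8%. Of the peaks in these genes, 5.57% ± 0.181 for PTBP1 and 5.62% ± 0.609 for IGF2BP2 lay on the strand opposite to the gene (SD, n = 2 each), against 8.19% and 8.10% over all genes.

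Genes that work beside integrins and laminins were read from the same density fit: 30 genes of cell adhesion sites and 16 of the basement membrane. Of these 46 genes, 45 were in the lists and 44 were tested. Density was higher in PTBP1 for 9 (20.5%), higher in IGF2BP2 for 12 (27.3%), and 23 did not pass, with a median difference of -0.16. Over all genes 12.7% and 12.3% were called each way. The count higher in PTBP1 was 15 (34.1%, against 21.5% of all genes) without IGF2BP2 replicate 2, and the count higher in IGF2BP2 was 6 (13.6%, against 7.61%) without PTBP1 replicate 1. PTK2B, a kinase related to focal adhesion kinase, held 122 and 123 PTBP1 peaks against 23 and 15 of IGF2BP2 (difference 2.00, limma adjusted p = 0.00179). LPP, a LIM protein of focal adhesions, held 387 and 343 against 92 and 93 (1.28, limma adjusted p = 0.00145).

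Both genes called most strongly towards IGF2BP2 encode laminin-binding proteins of the basement membrane or cell surface. AGRN, which encodes agrin, held 105 and 91 PTBP1 peaks against 140 and 132 of IGF2BP2 (difference -1.17, limma adjusted p = 0.00145). DAG1, which encodes dystroglycan, held 41 and 39 against 54 and 57 (-1.16, limma adjusted p = 0.00331). Enriched PTBP1 regions lay in 14 of the 44 partner genes with a reproducible PTBP1 region (31.8%, against 17.7% of all such genes), and enriched IGF2BP2 regions in 19 of 42 (45.2%, against 27.9%), with 9 genes in common. A gene with more regions has more chances to hold an enriched one, and TNS3 alone had 400 PTBP1 and 210 IGF2BP2 regions. These shares do not allow for the number of regions per gene, so they do not show an excess per region. LIMS2, an adaptor bound to integrin-linked kinase, had 12 enriched PTBP1 regions and 4 of IGF2BP2, and VCL, which encodes vinculin, had 9 and 3. TNS3, a tensin that binds integrin tails, had 8 enriched PTBP1 regions and 12 of IGF2BP2, the adaptor paxillin (PXN) had 6 and 7, and DAG1 had 0 and 7.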

How the data were processed

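The values come from 4 peak lists, 1 per IP library, while input libraries enter only through the ratios in these lists. The submitters' processing notes name HISAT2 and hg38. No peak caller, annotation or filter is named there, and which were applied is not given in the sources used here. Per the file headers, each list gives positions, strand, gene, transcript region and an overlap length in nucleotides, a score deposited by the authors that was not used in any test. The authors deposited a −log10 p per peak, which stops at 400. A deposited column headed as a count holds log2 values, which equal the log2 of whole IP reads over whole input reads plus a constant per chromosome, so that the commonest value is 3 reads to 1. No source used here states the divisor; that it is the input was inferred from these values.

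Reads were recovered where an exact binomial or continuity-corrected chi-square test gave the deposited −log10 p within 1%, for 98.5% to 99.6% of the peaks not below input whose −log10 p was neither 0 nor capped. Depth over whole libraries is unknown. The median was 12 and 9 IP reads per peak in the PTBP1 libraries and 4 in both IGF2BP2 libraries, so shares and counts of IGF2BP2 peaks rest on fewer reads. The common scale is the median of a library's chromosome constants. Lines given more than once (55 or fewer in a list) were kept once.

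Density and median log2 were fitted with limma 3.58.1 (trend, R 4.3.3) over the 4 IP libraries, at an adjusted p of 0.05. Shares were compared with a two-sided exact permutation test. A region was mirrored where a peak of the other strand covered at least 50% of the shorter one. Gene extents are from RefSeq, GRCh38.p14. The strand of 25 of the 37 genes came from RefSeq and that of 12 from most of their peaks. The scripts were tested on simulated data. The members and the lists of partner and marker genes were chosen with earlier results of these data known. Values in every library are given for genes that passed the density test, for genes with an enriched region and for the 5 with the most peaks of each protein. Regions are named by the 10 highest lower log2 of each protein, and partners by the 2 largest called differences each way and the 2 with the most enriched regions of each protein, with ties. The other genes and regions named were chosen after their values were seen. For 1 member, values are not reported here, although counts include it. Alternatives changed the pseudocount, filters, unit of counting, centring, thresholds, strand, replicate block and libraries.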

Additional observations from a re-analysis of the deposited data

Results flagged for a closer look

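ITGA3 was singled out because its IP over input effect differed between the proteins by a test of the difference. Its median peak log2, centred on all genes, was 1.56 higher in PTBP1 than in IGF2BP2, and the call held with peaks of at least 10 IP reads at 0.87 (limma adjusted p = 0.0283) but in neither fit without 1 of the PTBP1 replicates. Over these alternatives of leaving out 1 library it ran between 1.39 and 1.74.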

How the results depend on the processing

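Directions of the density calls were kept in all alternatives run except for ITGB5, which was at -1.33 with enriched peaks only, and LAMA5 passed in every one. LAMB1 and LAMC1, not called, changed sign to 1.58 and 1.09 with peaks of at least 10 IP reads and to 5.24 and 1.63 with enriched peaks only. The 5.24 rests on the pseudocount, as LAMB1 had 0 enriched peaks in both IGF2BP2 libraries and entered that fit through PTBP1 peaks alone. The count of genes higher in PTBP1, 10 of 33, was 3 of the 6 that could be tested with enriched peaks only (50.0%, against 19.7% of all genes). These 3, ITGB1, LAMB1 and LAMC1, are not among the 10, so this count does not bear on the 10 calls. ITGB1, with 7 and 7 enriched PTBP1 peaks and 0 and 2 of IGF2BP2, entered that fit almost only through PTBP1, as LAMB1 did through PTBP1 alone. The count higher in IGF2BP2, 1 of 33, was 2 with a pseudocount of 2 (6.06%, against 16.6%), 8 by nucleotides covered (24.2%, against 23.4%), 2 of 15 with peaks of at least 10 IP reads (13.3%, against 16.0%) and 1 to 3 when 1 library was left out. Without a filter on peaks the differences of ITGA6, LAMA3 and LAMB3 were the same and their calls were lost. Partner genes higher in PTBP1 numbered 5 of 20 with enriched peaks only and 6 to 15 without 1 library, against 9 of 44, and those higher in IGF2BP2 numbered 6 of 32 with peaks of at least 10 IP reads, 3 of 20 with enriched peaks only and 6 to 14 without 1 library, against 12. With enriched peaks only, 25.0% of the partner genes tested were higher in PTBP1, against 19.7% of all genes. In IGF2BP2 it was 15.0%, against 19.0%. With peaks of at least 10 IP reads, 34.4% of the partner genes were higher in PTBP1, against 34.6% of all genes. In IGF2BP2 it was 18.8%, against 16.0%. For median log2, 2 genes were higher in PTBP1 with at least 10 peaks in every library (15.4%, against 10.5% of all genes). With the log2 as deposited it was also 2 (9.52%, against 8.19%). In these settings 0 were higher in IGF2BP2, against 8.14% and 4.37% of all genes. Without 1 of the PTBP1 replicates limma called at most 1 of all 9672 genes in either direction. The difference in the share of intron peaks, PTBP1 minus IGF2BP2, was -6.43 points and 1.70 by nucleotides covered, and that for coding sequence 8.78 and 3.13. Without 1 library the differences ran between 7.92 and 9.65 points for coding sequence, -2.70 and -1.67 for 3′ UTRs and -7.55 and -5.30 for introns. Enriched PTBP1 regions numbered 38 at a log2 of at least 2 and 11 at 4, and those of IGF2BP2 numbered 17 and 2. Shares over all genes were not computed at these thresholds. In single replicates enriched peaks were counted in place of regions, 37 and 36 for PTBP1 and 52 and 45 for IGF2BP2. These are not counts of regions, and they are higher by the construction of the alternative. The causes of the other changes were not tested. Keeping the gene strand only, or asking that enriched peaks of both replicates overlap, was chosen after seeing the data and gave 17 and 21 PTBP1 regions and 9 and 9 IGF2BP2 regions.

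Replicates of the proteins share only a number: deviations of same-numbered libraries had a correlation of -0.002 for density and 0.013 for median log2 across genes. With the replicate number as a block, 13 genes were higher in PTBP1 by density (39.4%, against 16.3% of all genes) and 1 in IGF2BP2 (3.03%, against 15.1%). By median log2 it was 1 and 0 (4.76% and 0.0%, against 4.37% and 0.775%). Of the partner genes it was 10 and 12 by density (22.7% and 27.3%). The median of 4 IP reads per peak limits the IGF2BP2 values: 5 of its 9 enriched regions, 2 of them at 1 ITGB4 site, had 9 or fewer IP reads in each replicate.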
